A study of Homo sapiens and Mus musculus with 213 samples.

Results

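Here 57 genes of ribosome assembly were followed in RNA-seq of HEK293T cells. They were chosen by name as nucleolar genes that MYC is known to drive, and all 57 were found among the 58336 identifiers of the deposited tables and among the 20884 genes that averaged 10 or more normalized counts over 9 libraries and were tested. HEK293T is an immortalized line of human embryonic kidney origin. MYC WT cells keep the natural G-quadruplex (G4) motif of the MYC promoter, a G-rich stretch that folds into a four-stranded DNA structure. MYC MUT cells carry CRISPR-made point mutations in its G-runs that abolish folding, and in SWP cells the motif is replaced by a G4 motif of another gene, with another sequence that also folds. Both edited lines are homozygous clones grown from single sorted cells. Each line has 3 libraries, numbered as biological replicates by the labels, which do not say that they came from separate cultures, so p-values measure the spread between these libraries. A value is the number of reads on a gene over the size factor that the authors gave its library, called a normalized count here.

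Ribosome production starts in the nucleolus, where RNA polymerase I copies the ribosomal DNA into a long precursor. Small nucleolar ribonucleoproteins (snoRNPs) modify and guide the cutting of that precursor, and large sets of assembly factors and helicases build it into the small and the large ribosomal subunit. MYC, paired with MAX, binds the E-box hexamer CACGTG, and genes of this pathway are among its best known targets in proliferating cells. The 57 genes were sorted by role into 6 of Pol I transcription, 7 nucleolar scaffold proteins and regulators, 8 snoRNP genes, 21 genes of the small and 15 of the large subunit. They lie on 19 chromosomes, none of them on the chromosome of MYC.

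Promoter sequence was not part of how the genes were chosen, but they were chosen as known MYC targets, so the share with a MYC hexamer is a description and not independent of that choice. RefSeq promoters (GRCh38.p14, 250 bases before to 50 after an annotated start, 300 bases) were at hand for 51 of the 57 genes, with 63 starts in all. CACGTG, which reads the same on both strands, was found in 23 of the 63 (36.5%), from 22 genes, against 9.16% of 17727 promoters of tested genes and 7.26% of all 35116 promoters. In the last 50 bases before and the 50 bases after the start, 21 of the 63 (33.3%) held it, against 3.65% of the promoters of tested genes. Starts of one gene can overlap and share a copy. The windows below run from 60 bases before the start to 30 bases from the start on and show the 2 called genes that hold the hexamer (DDX21 and FBL, described below), 4 more holders from different roles (RRP9, WDR43, UTP20 and MRTO4), and DDX10 and NOB1, called genes without it. They lie on GRCh38.p14, with DDX21 at chr10:68956587-68956676 on the plus strand, FBL at chr19:39846350-39846439 on the minus strand, RRP9 at chr3:51941875-51941964 on the minus strand, WDR43 at chr2:28894607-28894696 on the plus strand, UTP20 at chr12:101280045-101280134 on the plus strand, MRTO4 at chr1:19251745-19251834 on the plus strand, DDX10 at chr11:108665009-108665098 on the plus strand and NOB1 at chr16:69754897-69754986 on the minus strand. Capitals mark CACGTG.
DDX21: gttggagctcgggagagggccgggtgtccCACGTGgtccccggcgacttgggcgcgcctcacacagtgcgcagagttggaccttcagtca
FBL: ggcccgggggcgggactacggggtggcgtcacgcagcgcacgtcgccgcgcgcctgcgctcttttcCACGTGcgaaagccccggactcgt
RRP9: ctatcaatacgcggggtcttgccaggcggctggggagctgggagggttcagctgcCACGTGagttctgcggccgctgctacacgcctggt
WDR43: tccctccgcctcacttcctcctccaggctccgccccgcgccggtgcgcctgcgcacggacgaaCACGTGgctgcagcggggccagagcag
UTP20: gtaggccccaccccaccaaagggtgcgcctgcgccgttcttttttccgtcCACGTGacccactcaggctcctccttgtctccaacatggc
MRTO4: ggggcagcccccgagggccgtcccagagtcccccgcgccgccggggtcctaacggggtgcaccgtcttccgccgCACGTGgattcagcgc
DDX10: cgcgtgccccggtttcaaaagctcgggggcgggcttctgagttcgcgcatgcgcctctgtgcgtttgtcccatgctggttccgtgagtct
NOB1: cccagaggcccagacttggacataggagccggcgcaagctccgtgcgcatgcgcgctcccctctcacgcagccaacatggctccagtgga
In DDX21 the hexamer began 31 bases before the start, in UTP20 10 and in RRP9 5 bases before it. In WDR43 it began 3, in FBL 6 and in MRTO4 14 bases after it. The DDX21 start shown lies inside the annotated gene. Its other annotated start lies upstream (window chr10:68956110-68956199) and lacks the hexamer. RefSeq promoters of POLR1E, RRP12, NOLC1, NOP58, DDX18 and RRP1B were not at hand. Between MYC MUT and MYC WT (tests below), the 22 holders of CACGTG had a median of -0.08 on the log2 scale, 2 of them called lower. The 29 genes lacking it had 0.02, 1 of them called lower. Of all tested genes 10.1% were called lower, and their median was -0.0034. POLR1E and RRP12, also called lower, fell in neither set.

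**Figure D1:**
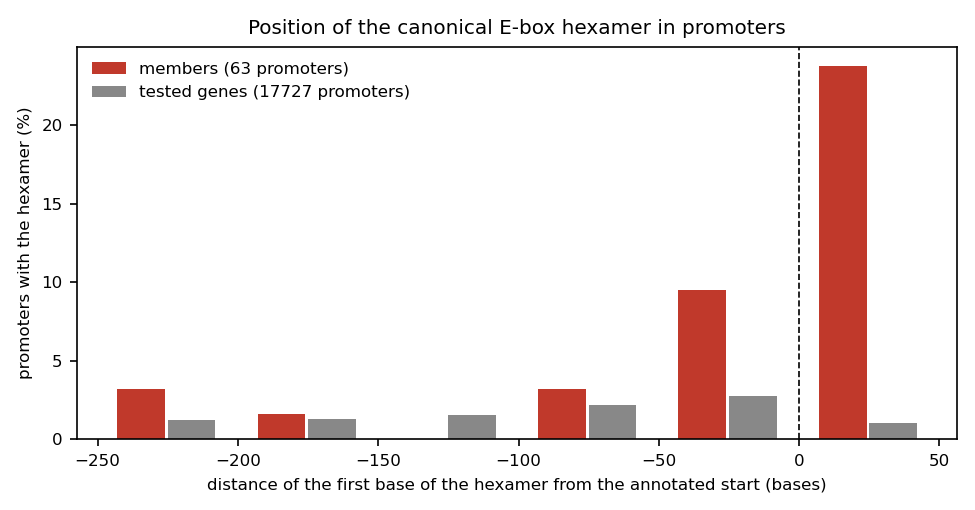
Share of promoters (%) in which the E-box hexamer begins in each 50-base step, against the distance of its first base from the annotated start in bases, for 63 promoters of 51 members (red) and 17727 promoters of all tested genes, members included (grey). In the 50 bases from the start on, the share is 23.8% of the members' promoters and 1.02% of those of all tested genes.

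MYC itself was checked first. Its normalized counts were 20020, 28396 and 21580 in MYC WT, 10693, 11176 and 12400 in MYC MUT, and 14480, 24743 and 25245 in SWP. All 3 MYC MUT libraries lay below all MYC WT and all SWP libraries, and MYC WT and SWP overlapped. The log2 fold change was -1.02 (SE, the standard error, 0.19, limma adjusted p = 0.00182) in MYC MUT against MYC WT and -0.15 (SE 0.19, limma adjusted p = 0.712) in SWP against MYC WT. SWP replicate 1 had the lowest MYC count of its line, and without it the log2 fold change of SWP against MYC WT was 0.12, while without MYC WT replicate 2 it was 0.0034. The 69 tested genes within 10 Mb of MYC had a median of -0.25 in MYC MUT against MYC WT.

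Libraries held from 65024354 to 98497026 reads on genes. Tests used limma on log2(normalized count + 1) with the 9 libraries together and Benjamini-Hochberg adjustment over the 20884 genes, and calls needed adjusted p below 0.05 together with a change of more than 0.5 on the log2 scale in either direction. The markers of the line (NEFL, NEFM, PAX2, VIM, KRT8 and KRT18) were all detected, with PAX2 lowest at 149 to 434 normalized counts. PTPRC, ALB, PECAM1, POU5F1 and NANOG, which mark other cell types, were at 0 to 6. KRT8 was higher in MYC MUT (log2 fold change 0.77) and lower in SWP (-1.27) than in MYC WT, so the 3 lines differed in marker genes as well. Only the MYC WT columns are named with a sequencing pool, so pool and edit cannot be told apart in comparisons with MYC WT. Whether the libraries of an edited line came from a single clone is not given, so clone and edit cannot be told apart.

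While MYC fell by 1.02 on the log2 scale, 5 of the 57 genes were lower and 0 were higher in MYC MUT. They were POLR1E, FBL, DDX21, RRP12 and NOB1, at 60.1% to 70.2% of the MYC WT mean. The 5 are 8.77% of the members, and 10.1% of all genes tested were called lower and 11.3% higher. With all libraries, the share called lower was near that of all genes, and the share called higher was below it. The count was 3 when MYC WT replicate 1 or MYC MUT replicate 2 was left out, where 2458 and 1925 of all 20884 genes were called lower. Without MYC WT replicate 2 it was 7, where 1771 of all genes were, so the relation to all genes moved with single libraries. The median log2 fold change of the 57 was -0.06, with a range from -0.73 (POLR1E) to 0.32 (DDX47), beside -0.0034 for all genes. When libraries were set to equal totals, the median of the members was 0.02 and that of all genes 0.07. The values are relative to the other genes of a library and do not measure RNA per cell, and in bulk RNA fewer cells with a transcript cannot be told apart from less of it in each cell.

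The libraries of MYC MUT lay wholly below those of MYC WT for 14 of the 57 (24.6%), where 26.4% of all genes did, and wholly above for 1 (1.75%, BYSL), where 25.9% did. By adjusted p alone, 12 were lower and 0 higher, and 19.8% of all genes were lower and 18.6% higher. Besides the 5 called genes these were NOLC1, NPM1, DKC1, HEATR1, WDR12, WDR75 and DDX10. No member passed upward in this fit, and 42 of the 57 had overlapping libraries. With the replicate number as a block, 19 were lower and 4 higher (BYSL, EMG1, PNO1 and UTP15) by adjusted p alone. Of all 20884 genes, 5334 were lower and 5220 higher with the block.

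**Figure D2:**
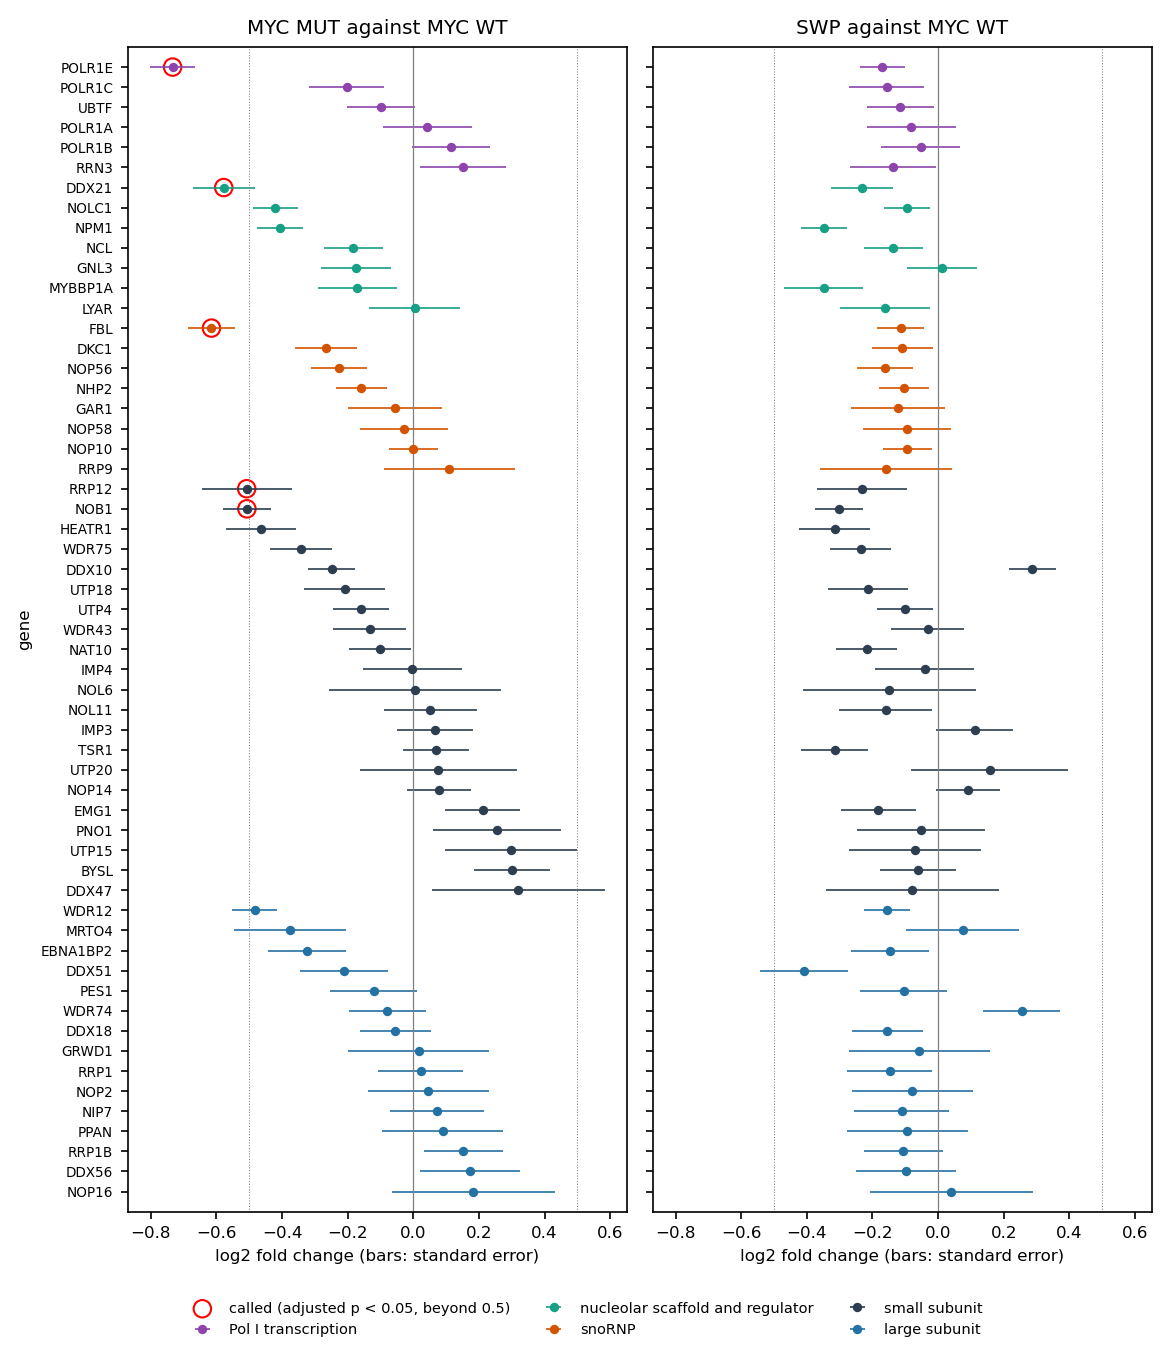
Fitted log2 fold change (horizontal axis, bars are standard errors) of each of the 57 genes, grouped by role (colour), in MYC MUT (left) and SWP (right) against MYC WT. The 5 called genes, ringed in red on the left, spread over 4 of the 5 roles, and none is called on the right.

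In the Pol I group 1 of 6 genes was called. POLR1E (ENSG00000137054, chr9:37485948-37503697) encodes a subunit of RNA polymerase I. Its normalized counts were 6478, 6225 and 5928 in MYC WT, 3908, 3546 and 3751 in MYC MUT, and 5812, 5287 and 5470 in SWP. MYC MUT lay apart from both other lines, with a mean of 3735 ± 182 against 6211 ± 275 in MYC WT (SD, n = 3 each). The log2 fold change was -0.73 (SE 0.07, limma adjusted p = 1.52e-05), the largest fall among the 57, and it stayed called in all 19 alternatives. The 136 tested genes within 10 Mb of POLR1E had a median of -0.34 in the same comparison. NOL6, a member on the same chromosome, lies among 142 neighbours with a median of -0.36 and had a log2 fold change of 0.01 itself. The windows of both genes overlap, and NOL6 differed by 1.08 on the log2 scale between replicates 1 and 2 of MYC WT. The part of the region in the fall of POLR1E was not tested.

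POLR1C, a subunit shared by polymerases I and III, had 5672, 4261 and 5506 normalized counts in MYC WT and 4541, 4372 and 4392 in MYC MUT. RRN3, the initiation factor that brings the polymerase to the promoter, had 5800, 4245 and 4685 in MYC WT and 5776, 5401 and 5075 in MYC MUT. Both overlapped between the lines, with log2 fold changes of -0.20 and 0.15 (limma adjusted p = 0.186 and 0.39). The largest subunit POLR1A, POLR1B and the rDNA architecture factor UBTF did not pass the test either, and the 6 genes had a median of -0.03, 3 negative and 3 positive.

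Of the 7 scaffold proteins and regulators, 6 had a negative log2 fold change in MYC MUT, with a median of -0.18, and 3 were lower by adjusted p. DDX21 (ENSG00000165732, chr10:68956135-68985068), an RNA helicase that links Pol I transcription and rRNA processing, had 81365, 68615 and 69326 normalized counts in MYC WT, 50988, 47162 and 48407 in MYC MUT, and 70890, 57120 and 58922 in SWP. MYC MUT was below every library of the other lines. The log2 fold change against MYC WT was -0.58 (SE 0.10, limma adjusted p = 0.000729), and without MYC WT replicate 1 it was -0.498 and no longer beyond 0.5. The 147 neighbours of DDX21 had a median of -0.26.

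NOLC1 (ENSG00000166197), a chaperone of snoRNPs, had 54358, 46806 and 51104 normalized counts in MYC WT, 37160, 37408 and 39034 in MYC MUT, and 48093, 45486 and 48832 in SWP. MYC MUT stood alone here too, with a fitted log2 change of -0.42 (0.07 standard error, limma adjusted p = 0.000734) that did not reach the fold threshold, with a median of -0.24 for its 181 neighbours.

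NPM1 (ENSG00000181163), nucleophosmin, the abundant histone-binding protein of the outer nucleolus, showed another order. Its normalized counts were 64094, 59667 and 62995 in MYC WT, 48693, 45699 and 46443 in MYC MUT, and 53286, 47682 and 45956 in SWP. Both edited lines lay below MYC WT and overlapped each other, with log2 fold changes of -0.41 (limma adjusted p = 0.00104) in MYC MUT and -0.35 (limma adjusted p = 0.00985) in SWP. NPM1 has 49 listed pseudogenes, whose summed counts were 106% of those of NPM1, so reads could be split between copies. With all copies added, the difference was -0.33 in MYC MUT and -0.32 in SWP.

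NCL, nucleolin, the most counted member, had 170973, 139494 and 149686 normalized counts in MYC WT and 139402, 130453 and 134261 in MYC MUT. The lowest MYC WT library lay just above the highest of MYC MUT, and the log2 fold change of -0.18 did not pass (limma adjusted p = 0.134).

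Of the 8 snoRNP genes, 6 were negative in MYC MUT, with a median of -0.11. FBL (ENSG00000105202, chr19:39834458-39846379), fibrillarin, the methyltransferase of box C/D snoRNPs, had the highest count per kb of exon of the 57 in MYC WT, 21028, next to 17198 for NCL. Its normalized counts were 44317, 43747 and 46807 in MYC WT, 28572, 28563 and 30941 in MYC MUT, and 38820, 40725 and 45267 in SWP. MYC MUT was apart from both other lines, and MYC WT and SWP overlapped. The log2 fold change against MYC WT was -0.62 (SE 0.07, limma adjusted p = 7.72e-05) and stayed called in all 19 alternatives, while its 441 neighbours had a median of -0.03.

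The partners of FBL moved less. NOP56, a core protein of the same snoRNPs, had 36993, 30973 and 35164 normalized counts in MYC WT and 30537, 29194 and 28206 in MYC MUT, which did not overlap. Its log2 fold change was -0.23 (limma adjusted p = 0.0562). DKC1, dyskerin, the pseudouridine synthase of box H/ACA snoRNPs, had 29701, 23974 and 26387 in MYC WT and 22885, 21558 and 21894 in MYC MUT, with a fitted log2 change of -0.27 (limma adjusted p = 0.0427). Its H/ACA partners NHP2, GAR1 and NOP10 and the C/D protein NOP58 had values from -0.16 to 0.00 and did not pass.

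Of the 21 small subunit genes, 10 were negative and 11 positive in MYC MUT, with a median of 0.01 and 2 called. NOB1 (ENSG00000141101, chr16:69741871-69754926), the nuclease that makes the last cut in small subunit rRNA, had 7326, 8505 and 8522 normalized counts in MYC WT, 5816, 5443 and 5841 in MYC MUT, and 6484, 6449 and 6767 in SWP. Here the 3 lines formed 3 separate levels, with MYC MUT lowest and SWP between. The log2 fold changes against MYC WT were -0.51 (limma adjusted p = 0.000295) in MYC MUT and -0.30 (limma adjusted p = 0.0226) in SWP. The former was -0.47, and its call lost, when any of MYC WT replicate 2, replicate 3 of that line or MYC MUT replicate 2 was left out.

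RRP12 (ENSG00000052749, chr10:97356358-97426076), a factor needed for export of both subunits, had 10529, 8111 and 9357 normalized counts in MYC WT, 6984, 5819 and 6839 in MYC MUT, and 9571, 6521 and 7923 in SWP. MYC MUT was below MYC WT and overlapped SWP. The log2 fold change against MYC WT was -0.51 (SE 0.14, limma adjusted p = 0.0129), which lost its call when MYC WT replicate 1 (-0.42) or MYC MUT replicate 2 (-0.43) was left out, and its 207 neighbours had a median of -0.21.

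HEATR1, a scaffold of early small subunit assembly, had 36038, 29554 and 28991 normalized counts in MYC WT, 24126, 20790 and 23434 in MYC MUT, and 28798, 22726 and 24478 in SWP. MYC WT was above both edited lines, at log2 fold changes of -0.46 in MYC MUT (limma adjusted p = 0.00574) and -0.32 in SWP (limma adjusted p = 0.0944). BYSL, a small subunit factor singled out after its values were seen, was the one member with every MYC MUT library above MYC WT, with 8530, 7810 and 8286 against 7677, 5699 and 6757 normalized counts and a fitted log2 change of 0.30 (limma adjusted p = 0.0608).

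DDX47, a helicase of the small subunit pathway, was the lowest of the 57 per kb of exon, at 11.8 normalized counts per kb in MYC WT. Its normalized counts were 71.8, 56.1 and 51.0 in MYC WT and 86.0, 71.0 and 66.2 in MYC MUT, which overlapped. APOLD1, which overlaps DDX47 on the same strand in the annotation, had 626 ± 152 normalized counts in MYC WT (SD, n = 3), and how reads in a shared stretch were assigned was not tested. The next lowest, NOP2, had 222 per kb.

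Of the 15 large subunit genes 0 were called and 1 was lower by adjusted p, with a median of 0.02. WDR12, a partner of PES1 in the complex that matures large subunit rRNA, had 7817, 6999 and 7322 normalized counts in MYC WT, 5365, 5329 and 5121 in MYC MUT, and 6982, 6760 and 6143 in SWP. The 3 lines did not overlap, and the log2 fold change in MYC MUT was -0.48 (SE 0.07, limma adjusted p = 0.000313), short of the fold threshold. PES1 itself had a fitted log2 change of -0.12 (limma adjusted p = 0.503).

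EBNA1BP2, an early large subunit factor, had 12093, 8807 and 11217 normalized counts in MYC WT and 8935, 8097 and 8413 in MYC MUT. MRTO4, which holds the place of a ribosomal stalk protein during assembly, had 11869, 7057 and 9581 in MYC WT and 7617, 6805 and 7088 in MYC MUT. In both genes MYC WT replicate 2 fell within the MYC MUT range. Their log2 fold changes of -0.32 and -0.38 did not pass (limma adjusted p = 0.0514 and 0.105). Both lie on the short arm of chromosome 1, where their neighbours had medians of -0.33 and -0.30.

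In SWP, 0 of the 57 were called in either direction, where 2.98% of all genes were called lower and 2.15% higher. The median of the members was -0.11, beside -0.06 for all genes, and 49 of 57 values (86.0%) were negative, as were 61.0% of all genes. Single libraries moved that median, to -0.01 without MYC WT replicate 1, where all genes had -0.05, to -0.24 when MYC WT replicate 2 or SWP replicate 1 was left out, and to -0.06 without SWP replicate 2. Libraries of SWP lay wholly below those of MYC WT for 5 of the 57 (8.77%, against 15.5% of all genes) and wholly above for 1 (1.75%, against 9.10%), DDX10. By adjusted p alone, NPM1 and NOB1 were lower and DDX10 higher, and 5.48% of all genes were lower and 4.49% higher.

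Libraries 1 and 2 of SWP deviated from their line mean together with the same-numbered MYC WT libraries. SWP replicate 3 correlated more with MYC WT replicate 2 (0.263) than with replicate 3 (0.102). With the replicate number as a block (a count added after seeing the data), 11 members were lower and 2 higher by adjusted p alone. Of all genes, 12.5% were lower and 7.69% higher with it. The block added DDX21, DDX51, HEATR1, MYBBP1A, NAT10, POLR1E, RRP12, TSR1 and WDR75 below MYC WT, and WDR74 above it. DDX51 had the largest of these differences, with a log2 fold change of -0.41, and 0 members were beyond 0.5 with the block.

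DDX10 (ENSG00000178105, chr11:108665058-108940999), a small subunit helicase, was the one member that passed in opposite directions in the edited lines. Its normalized counts were 6116, 5546 and 5603 in MYC WT, 5228, 4701 and 4605 in MYC MUT, and 7387, 6862 and 6820 in SWP. The 3 lines formed 3 levels with no overlap, SWP highest. The log2 fold changes against MYC WT were 0.29 in SWP (limma adjusted p = 0.0282) and -0.25 in MYC MUT (limma adjusted p = 0.0187). The 128 neighbours had medians of 0.18 in SWP and 0.03 in MYC MUT.

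The fold changes of MYC MUT against SWP leave MYC WT and its sequencing pool out. Their p-values still use a spread estimated with the MYC WT libraries included. In this comparison, 3 of the 57 were lower in MYC MUT, POLR1E, FBL and DDX10, and 0 higher, where 8.31% of all genes were lower and 12.3% higher. The 3 log2 fold changes were -0.56 (limma adjusted p = 8.29e-05), -0.50 (limma adjusted p = 0.000291) and -0.54 (limma adjusted p = 0.000184). FBL was within 0.5 when replicate 1 or 2 of MYC MUT (-0.48 each) or SWP replicate 3 (-0.44) was left out, and also with equal totals (-0.48), and DDX10 was at -0.50, just inside, without SWP replicate 1. The median of the 57 was 0.04, beside 0.04 for all genes, and the pseudogenes of DDX10, at 43.1% of its counts, when added gave -0.52.

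No library overlapped for 10 members lower in MYC MUT than in SWP (17.5%, against 23.0% of all genes) and 3 higher (5.26%, against 29.2%). By adjusted p alone 8 were lower and 3 higher (BYSL, EMG1 and TSR1), against 17.2% and 20.9% of all genes. Same-numbered libraries deviated together in this pair of lines as well, and with the block 13 were lower and 11 higher, against 22.6% and 27.8%. The members added upward by the block were DDX56, LYAR, MYBBP1A, NOL11, PNO1, RRN3, RRP1B and UTP15, and without SWP replicate 1, 2 members were called higher.

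**Figure D3:**
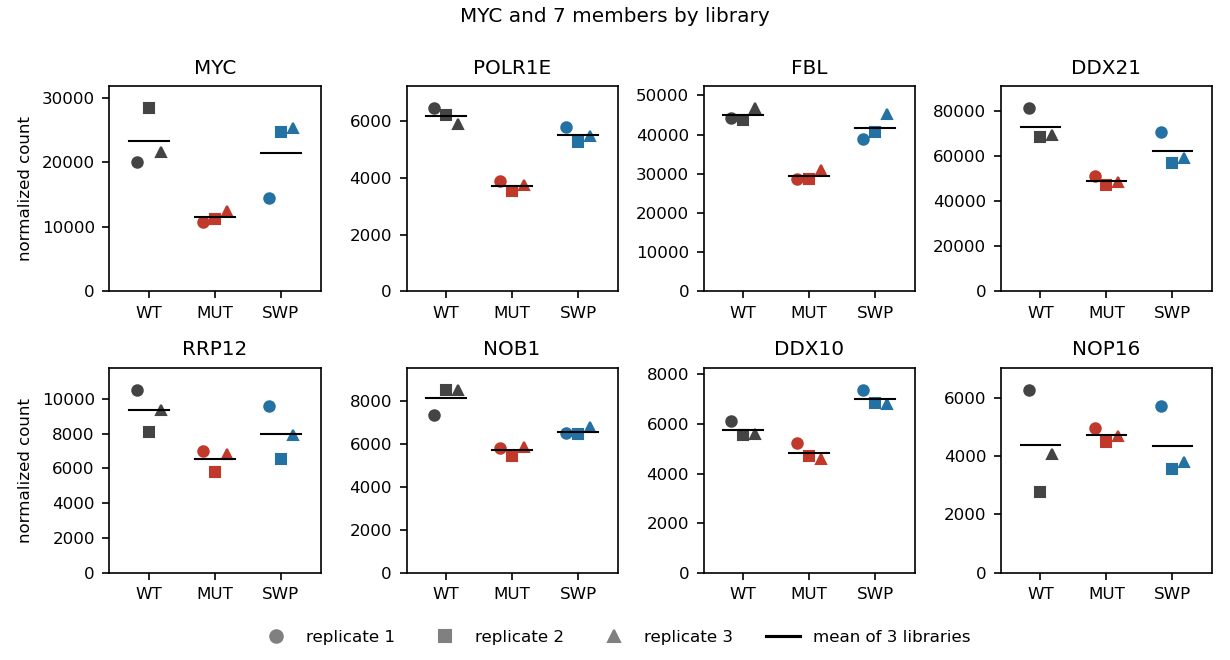
Normalized counts (vertical axes, linear from 0) of MYC, the 6 genes called in any comparison and NOP16 in each library of the 3 lines, with symbols for the replicate number and a bar for the mean. MYC WT replicate 1 and SWP replicate 1 are lowest of their line for MYC and highest for NOP16, at 6278 and 5725.

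Within each line most members had the same order of libraries. Replicate 1 held the highest value of its line for 53 of the 57 genes in MYC WT, 45 in MYC MUT and 54 in SWP, where it did so for 37.2%, 35.3% and 39.8% of all genes. Replicate 2 held the lowest value for 52, 42 and 43 of the 57, where it did so for 34.0%, 33.0% and 30.1% of all genes. In scalings added after seeing the data, libraries set to equal totals gave 51, 43 and 52 genes highest in replicate 1, and TMM scaling gave 53, 45 and 54. For replicate 2 as the lowest, equal totals gave 51, 32 and 36, with replicate 3 lowest for 22 genes in MYC MUT and 19 in SWP, and TMM gave 52, 39 and 42. The order was not particular to the 57. Among 115 other genes of ribosome assembly, listed further below, replicate 1 was highest for 80, 80 and 88 and replicate 2 lowest for 92, 64 and 66 in MYC WT, MYC MUT and SWP.

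Replicate 1 exceeded replicate 2 by a median of 0.42 on the log2 scale in MYC WT, 0.11 in MYC MUT and 0.36 in SWP, where the medians of all genes were -0.013, 0.0053 and -0.0072. The exceptions were NOB1 in MYC WT (-0.22), NOLC1 and IMP3 in MYC MUT (-0.01 and -0.03) and FBL in SWP (-0.07). NOB1 and FBL, among the called genes, thus did not share the order of the other members in these lines. The median coefficient of variation of the members was 15.5% in MYC WT, 4.55% in MYC MUT and 13.7% in SWP, and that of all genes was 10.9%, 6.19% and 10.8%. The members were more spread than all genes in MYC WT and SWP and less spread in MYC MUT.

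Of the 5 roles, the large subunit genes had the largest median of replicate 1 over replicate 2 in MYC WT (0.54) and SWP (0.46), and the small subunit genes in MYC MUT (0.14). NOP16, a large subunit factor, singled out after its values were seen, had 6278, 2778 and 4087 normalized counts in MYC WT, 4948, 4498 and 4683 in MYC MUT, and 5725, 3560 and 3807 in SWP. Its MYC WT libraries spanned a log2 difference of 1.18, and all 3 MYC MUT values lay within that span. NOL6, a small subunit factor chosen likewise, had 7783, 3688 and 5073 in MYC WT, 5718, 4899 and 5259 in MYC MUT, and 6876, 3479 and 4474 in SWP. Neither passed in MYC MUT against MYC WT (limma adjusted p = 0.595 and 0.989).

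MYC ran the other way in these libraries, being lowest in replicate 1 of each line, with 20020, 10693 and 14480 normalized counts, where most of the 57 were highest. Reads on genes in replicate 1 were 76975859 in MYC WT, 79913764 in MYC MUT and 66473174 in SWP, the deepest library of its line in MYC MUT and between the other two in MYC WT and SWP. What the libraries of a number share is not given in the labels, and its part in the order of the members was not tested.

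The order of replicates bears on the median of the members. Between same-numbered libraries, the median of MYC MUT minus MYC WT was -0.23 in replicate 1, 0.08 in replicate 2 and -0.09 in replicate 3, so it changed sign. SWP minus MYC WT was -0.13, -0.04 and -0.18. MYC MUT minus SWP was -0.15, 0.15 and 0.10, which changed sign as well. Without MYC WT replicate 1 the median of MYC MUT against MYC WT was 0.04, and without MYC WT replicate 2 it was -0.20.

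**Figure D4:**
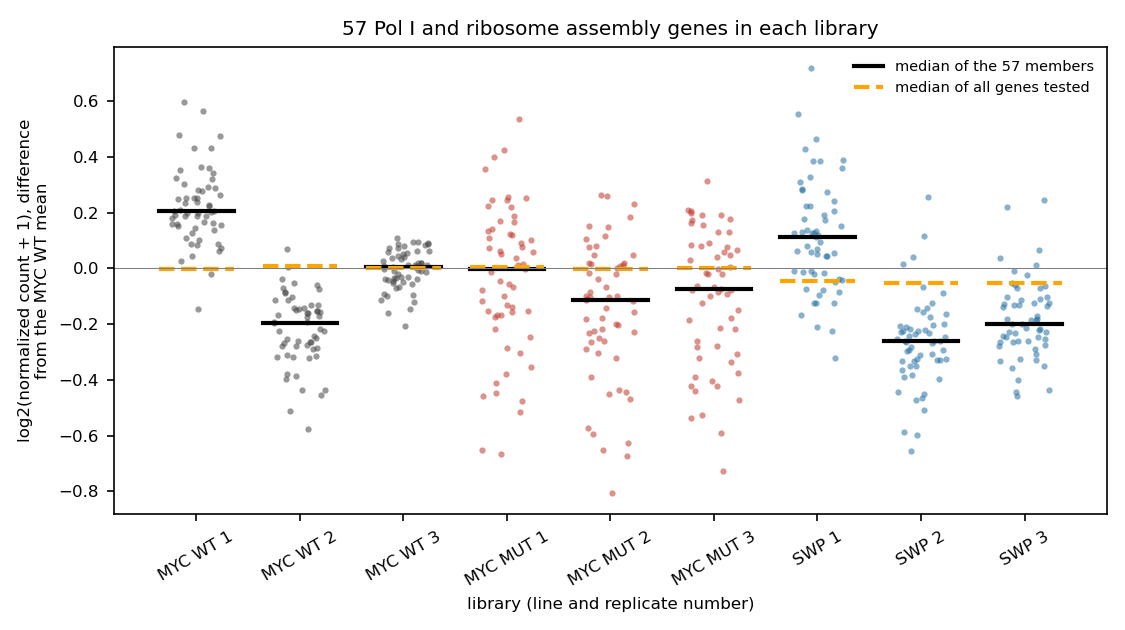
Difference of each of the 57 genes from its MYC WT mean on the log2(normalized count + 1) scale (vertical axis) in each of the 9 libraries, with the median of the 57 (black) and of all tested genes (orange, dashed). The members' median is 0.20 in MYC WT replicate 1, -0.20 in MYC WT replicate 2, 0.11 in SWP replicate 1 and -0.26 in SWP replicate 2, while that of all genes stays between -0.05 and 0.01.

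Summed, the 57 genes made up 1.34%, 1.10% and 1.22% of normalized counts in MYC WT, 1.14%, 1.09% and 1.10% in MYC MUT, and 1.25%, 1.06% and 1.10% in SWP. MYC WT replicate 2 lay among the other lines, and an exact two-sided permutation test of MYC MUT against MYC WT gave p = 0.2, where 0.1 is the smallest that 3 libraries against 3 allow. The 7 scaffold proteins and regulators held 0.501 ± 0.038% in MYC WT, 0.424 ± 0.0094% in MYC MUT and 0.456 ± 0.0281% in SWP (SD, n = 3 each), and MYC MUT did not overlap MYC WT (exact permutation p = 0.1). The snoRNP genes held 0.198 ± 0.0137%, 0.171 ± 0.0023% and 0.188 ± 0.0083%, and MYC MUT was below both other lines. The large subunit genes held 0.185 ± 0.0298%, 0.188 ± 0.0061% and 0.179 ± 0.0253%, which overlapped. So did the Pol I genes, at means of 0.0695%, 0.0695% and 0.0667%, and the small subunit genes, at 0.266%, 0.259% and 0.250%. Without NCL and NPM1, the sum of the members in MYC MUT against MYC WT gave an exact permutation p = 0.4.

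The genes also share features of their loci. Of the 57, 10 (17.5%) carry annotated small nucleolar RNAs within the gene on the same strand, 29 in all, where 1.70% of 13853 tested protein-coding genes do. NCL, NOP56, NOP58, DKC1, GNL3 and PPAN are among them, so a host gene of snoRNAs can itself encode a snoRNP protein. In 24 members another listed gene overlaps on the opposite strand and in 8 on the same strand, and since the use of strand in counting is not given, reads of such overlaps could be counted on either gene.

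The other genes of the pathway, 115 from a list of Pol I, snoRNP, subunit assembly and exosome genes, were set beside the 57. In MYC MUT against MYC WT 15 of the 115 (13.0%) were lower and 0 higher, where 10.1% and 11.3% of all genes were. By adjusted p alone 35 were lower and 7 higher, against 19.8% and 18.6% of all genes. The median of the 115 was -0.10, beside -0.0034 for all genes. In SWP 2 (1.74%) were lower (UTP6 and NOC4L) and 0 higher, against 2.98% and 2.15% of all genes. In MYC MUT against SWP 10 (8.70%) were lower and 3 (2.61%) higher, against 8.31% and 12.3% of all genes. The counts of higher genes moved with single libraries, to 4 in MYC MUT against MYC WT without MYC WT replicate 1, and in MYC MUT against SWP to 6 without SWP replicate 1, 1 without MYC MUT replicate 3 and 0 without SWP replicate 2. In SWP, 4 were lower without SWP replicate 1 and 1 without MYC WT replicate 1 or 3 or without SWP replicate 2 or 3. The largest falls were in BOP1, the third protein of the complex of PES1 and WDR12, in EXOSC8, a subunit of the RNA exosome, and in NOP53, a large subunit factor. The absence from the chromosome of MYC was stated for the members alone and does not cover the 115. The part of chromosome position in these falls was not tested.

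BOP1 had 16391, 14650 and 16691 normalized counts in MYC WT and 8595, 7982 and 8570 in MYC MUT, a fitted log2 change of -0.92 (limma adjusted p = 9.67e-06). EXOSC8 had 6300, 7247 and 7475 in MYC WT and 3701, 3975 and 3733 in MYC MUT, a fitted log2 change of -0.88 (limma adjusted p = 1.87e-05). NOP53 had 12378, 14996 and 15098 in MYC WT and 7393, 8218 and 8902 in MYC MUT, a fitted log2 change of -0.79 (limma adjusted p = 0.000591). None of the 3 overlapped between the lines. Neighbours had medians of -0.39 for BOP1, -0.40 for EXOSC8 and -0.09 for NOP53.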

How the data were processed

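RNA-seq was analysed from 9 libraries (3 each of MYC WT, MYC MUT and SWP). The other 204 samples of the study (other assays) were not analysed here. Per its methods, the authors made strand-specific poly(A) libraries, ran bwa mem at its defaults on hg38, an aligner without spliced alignment, deduplicated with Picard and counted reads per GENCODE gene. The counting tool and its use of strand are not given in the sources used here. The deposited values are a signal that is never negative, the read count of each gene divided by a DESeq2 size factor. Multiplied by that factor, 100% of values were whole reads within 1e-06, and these reads served the count-based alternatives.

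For 57754 of 58336 identifiers a GENCODE entry (hg38) gave the symbol and position. The test was limma 3.58.1 (R 4.3.3, eBayes with trend) on log2(normalized count + 1) over 20884 genes with a mean of at least 10, which understates changes of low genes. Lines were compared without the replicate number. Deviations of same-numbered libraries from their line means correlated at 0.555, 0.403 and 0.102 in SWP with MYC WT. In MYC MUT with SWP they correlated at 0.333, 0.241 and 0.232. Both pairs of lines were also fitted with the number as a block, although SWP replicate 3 correlated more with MYC WT replicate 2 (0.263). In MYC MUT with MYC WT the correlations were 0.328, 0.146 and 0.049. Only MYC MUT replicate 1 correlated best with its own number, and the samples were not taken as paired. No pair of libraries repeated the same counts, with a chi-square per degree of freedom of 9.10 to 60.2 within a line.

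Alternatives were equal totals, a pseudocount of 0.1 or 10, no filter beyond 1 read, a minimum mean of 50, eBayes without trend, 2 groups only, the replicate block, edgeR 4.0.16 with TMM, DESeq2 1.42.0, adjusted p alone, and leaving out each library. The fits were tried on simulated counts with the same spread setting for all genes and no shared order of replicates. There limma called 185 of 200 changed genes and 7 unchanged ones. The simulation does not cover the order of replicates seen in these libraries. Members and lists were chosen with earlier results of these data known. Values by library are given for MYC, each called member, the 3 members of each role with the smallest p in MYC MUT against MYC WT, the highest and lowest member per kb of exon, and the 3 other pathway genes with the largest called falls. Other pathway genes called higher there would have been named likewise (0 were). Others with values were chosen after these were seen. Figures used matplotlib 3.10.9 in Python 3.11.15.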

Additional observations from a re-analysis of the deposited data

Results flagged for a closer look

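The 2 edited lines moved differently from MYC WT in 3 of the 57 genes and in MYC, by the test of MYC MUT against SWP itself. The 3 are 5.26% of the members, where 8.31% of all genes were called lower and 12.3% higher. The log2 fold changes of MYC MUT against SWP were -0.56 for POLR1E, -0.50 for FBL, -0.54 for DDX10 and -0.87 for MYC. All 3 MYC MUT libraries lay below all 3 SWP libraries for each, as they did for 23.0% of all genes. DDX10 was the one of them with every SWP library above every MYC WT library.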

How the results depend on the processing

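The count of members lower in MYC MUT against MYC WT was 5 in the fit described, 3 with equal totals and with edgeR, and 12 by adjusted p alone. It was 3 to 7 when single libraries were left out. Without MYC WT replicate 1 or MYC MUT replicate 2 it was 3, where 2458 and 1925 of all 20884 genes were called lower. Without MYC WT replicate 2 it was 7, where 1771 of all genes were. The count of members higher was 0, and 0 to 1 without single libraries. In SWP against MYC WT, 0 were called lower, with 0 to 1 without single libraries (1 without MYC WT replicate 2 or without SWP replicate 1), and by adjusted p alone 2 were lower and 1 higher. In MYC MUT against SWP, adjusted p alone gave 8 lower and 3 higher, and leaving out single libraries gave 2 to 3 lower (2 also with equal totals, where FBL was lost) and 0 to 2 higher (2 without SWP replicate 1). With the replicate block the counts of called members were 5, 0 and 3 lower and 0 higher, as without it. By adjusted p alone the block gave 19 lower and 4 higher in MYC MUT against MYC WT. Of all 20884 genes, 5334 were lower and 5220 higher. In that pair of lines only MYC MUT replicate 1 correlated best with its own number (0.328). MYC MUT replicate 2 correlated best with MYC WT replicate 3 (0.154, beside 0.146 with replicate 2). MYC MUT replicate 3 correlated best with MYC WT replicate 2 (0.0911). The genes called without the block stayed called with it. The medians of the members moved by less than the spread between libraries in all alternatives. That spread is larger than the medians of the fit described, so staying within it does not mean that their sign or size was stable. The median of MYC MUT against MYC WT was above 0 when totals were made equal (0.02) or MYC WT replicate 1 was left out (0.04), and that of MYC MUT against SWP was -0.01 with edgeR and with DESeq2 and, without single libraries, ran from -0.07 (without SWP replicate 2) to 0.17 (without SWP replicate 1), with 0.0054 without MYC MUT replicate 1. That of SWP against MYC WT was -0.06 with equal totals and -0.06 with edgeR, and -0.24 to -0.01 without single libraries. POLR1E and FBL stayed called in MYC MUT against MYC WT in all 19 alternatives and DDX21 in 18. NOB1 was lost in 5 and RRP12 in 4, among them equal totals (-0.43 each) and edgeR (-0.50 each). Several alternatives leave the fold change of this comparison as it was and can alter only its p-value. These are the filters, eBayes without trend, 2 groups only, the block and leaving out a SWP library. The promoters with CACGTG were 22 of 63 when the window began 150 bases before the start. DDX47, at 42.7 to 87.1 normalized counts, is the member with the lowest counts, and why was not tested. With 3 libraries a line, the estimate of the spread is limited.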
